A study of Homo sapiens with 6 samples.

Results

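The SOX genes examined here were SOX21 and 9 further members of its family, namely SOX1, SOX2, SOX3, SOX4, SOX5, SOX9, SOX11, SOX12 and SOX13. These 10 genes were found by symbol among the 28008 genes of the count table. The family was selected on the log2 fold change of SOX21, which was higher after doxycycline (DOX), so the difference of SOX21 between the groups is given as a description with no test. The cells were NCI-H660, a human neuroendocrine prostate cancer (NEPC) line, transduced with a DOX-inducible vector carrying a short hairpin RNA (shRNA) against MUC1 and selected in puromycin. All libraries came from these shRNA-carrying cells. DOX-negative cells received 0.1% DMSO as vehicle (n = 3), and DOX-positive cells received DOX at 500 ng/ml (n = 3), which switches on the hairpin and silences MUC1. No library with DOX and a control hairpin, or with another hairpin against MUC1, was analysed here. Effects of the drug itself, of the hairpin beyond MUC1 and of MUC1 silencing thus cannot be told apart. The replicates are 3 cultures of 1 line, and p values measure the spread among them.

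SOX proteins are transcription factors that bind DNA through an HMG box related to that of SRY, bending the helix at short AT-rich sites. They are sorted into groups by sequence. SOXB1 factors (SOX1, SOX2 and SOX3) activate genes that hold neural and stem cells in an undifferentiated state, whereas the SOXB2 factors SOX21 and SOX14 bind similar sites and mostly repress. SOX2 is known in prostate cancer for its part in the loss of luminal identity and the gain of neuroendocrine features. SOXC factors (SOX4, SOX11 and SOX12) act in neuronal and epithelial progenitors, SOXD factors (SOX5, SOX6 and SOX13) lack an activation domain of their own, and the SOXE factor SOX9 drives cartilage formation and is also used by prostate epithelium.

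Library depth was between 47620696 and 74061121 counts. MUC1, the targeted gene, was lower in every DOX-positive library and fell by 1.32 on the log2 scale (SE 0.096, edgeR adjusted p = 0.00017). The cells carried the markers their label implies, since all 7 neuroendocrine markers examined, such as CHGA and SYP, passed the count filter, and their summed level was 115.3 to 165.6 TPM without DOX and 110.6 to 174.6 TPM with DOX. Of these 7, NCAM1 (log2 fold change -0.50, edgeR adjusted p = 0.014) and INSM1 (-0.45, edgeR adjusted p = 0.039) fell, and these calls were lost in 5 and 8 of 18 alternatives, in both cases without the DOX-negative replicate 2 (-0.44 and -0.41) or DOX-negative replicate 3 (-0.52 and -0.44) library, and for INSM1 also without the DOX-positive replicate 2 (-0.52) or DOX-positive replicate 3 (-0.32) library. CHGA (-0.20, SE 0.082, edgeR adjusted p = 0.19) and CHGB were not called, and CHGB was at a log2 fold change of 0.29 (SE 0.11, edgeR adjusted p = 0.17) with groups that did not overlap. TPM corrects counts for gene length and sets every library to an equal sum. Luminal prostate markers summed to at most 0.61 TPM, with KLK3 at 0 in all libraries, and neither of the 2 that could be tested was called. Fibroblast markers summed to 2.41 to 3.47 TPM and 2.46 to 3.64 TPM in the same order, with COL3A1 and THY1 at 0, and the 3 that could be tested went both ways. LUM (log2 fold change 1.06, edgeR adjusted p = 0.030) and COL1A1 (0.60, edgeR adjusted p = 0.019) were called higher with DOX, whereas COL1A2 was at -0.71 (SE 0.27, edgeR adjusted p = 0.20), and the groups did not overlap for any of the 3. Over all 17026 tested genes, 4.87% were called by edgeR and the groups did not overlap for 28.1%. The LUM call was lost in 5 of 16 alternatives, among them limma-voom (adjusted p = 0.055) and the fits without DOX-negative replicate 2 (0.93), DOX-negative replicate 3 (1.08) or DOX-positive replicate 3 (0.72), and the COL1A1 call in 3 of 16, among them the fits without DOX-negative replicate 2 (0.59) or DOX-negative replicate 3 (0.52). The 5 immune markers summed to at most 0.62 TPM, with CD3E at 0, and the 1 that could be tested was not called. Their part in the values of the SOX genes was not tested. The DOX-negative replicate 3 library stood apart in TPM, as 34.5% of its TPM came from the small nucleolar RNA SNORD3A, whereas RN7SK was the leading RNA of the other 5 libraries at 25.7% to 27.1%.

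SOX21 is a gene with a single exon on the minus strand of chromosome 13, at chr13:94709622-94712545 (GRCh38.p14, RefSeq). On the opposite strand, a long noncoding RNA named SOX21-AS1 starts 171 bases upstream of the SOX21 start, at chr13:94712716-94715945, and is transcribed away from it. These gene models do not overlap. The promoter windows of the pair, taken as 250 bases before to 50 bases after each start, share 270 bases. Because both transcripts were measured, the SOX21 window is printed here as RefSeq gives it, at chr13:94712496-94712795 on the minus strand, beside that of SOX2, at chr3:181711675-181711974 on the plus strand. SOX2 is shown because it is the most abundant SOXB factor of these cells. Capitals mark matches, on either strand, to any of 7 motifs. These were the SOX-type core AACAAT, the core ACAAAG shared by SOX and TCF factors, the TEAD-type core GGAATG, the E-box CACGTG, the box with the letters CCAAT, the GC box GGGCGG and the box with the letters TATAAA, and no matches overlapped in these windows.
SOX21: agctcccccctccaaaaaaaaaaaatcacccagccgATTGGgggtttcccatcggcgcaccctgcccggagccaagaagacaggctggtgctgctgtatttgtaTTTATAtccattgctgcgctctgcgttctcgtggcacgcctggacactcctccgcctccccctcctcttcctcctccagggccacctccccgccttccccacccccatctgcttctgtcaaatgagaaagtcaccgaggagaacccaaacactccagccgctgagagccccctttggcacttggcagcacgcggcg
SOX2: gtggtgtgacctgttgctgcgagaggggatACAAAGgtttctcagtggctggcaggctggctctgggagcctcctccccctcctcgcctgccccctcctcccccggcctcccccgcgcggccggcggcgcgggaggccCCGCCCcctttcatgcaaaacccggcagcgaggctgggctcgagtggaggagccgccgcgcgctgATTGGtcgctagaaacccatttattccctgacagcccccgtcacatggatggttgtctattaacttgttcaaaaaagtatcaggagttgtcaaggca

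In the SOX21 window the TATAAA letters lie on the SOX21-AS1 strand, where they begin 30 bases before the start of SOX21-AS1. They lie 146 bases before the SOX21 start when read from that side. TATAAA occurs in 11.5% of the 35116 promoter windows in the RefSeq table, and among the 8 members that have such a window it was present in SOX21 alone. A CCAAT match was present in 5 of these 8 windows, against 34.6% of all windows. The GC box was present in 6 of the 8, but not in SOX21, against 45.0% of all windows. AACAAT (10.1% of all windows) and ACAAAG (16.1%) were each present in 1 member, SOX5 and SOX2 respectively, GGAATG (14%) was present in SOX4, and CACGTG (7.26%) in 0 of the 8. The SOX21 window had a GC content of 60.0% and 15 CpG sites, close to the medians of 58.7% and 14 over all windows, whereas SOX12 had 54 CpG sites.

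The levels of the family were compared first, per gene length, over the 6 libraries. SOX4 led at 88.0 ± 14.4 TPM (SD, n = 6), followed by SOX2 at 22.0 ± 5.52 TPM and SOX13 at 9.85 ± 1.68 TPM. SOX4, SOX2 and SOX13 belong to the SOXC, SOXB1 and SOXD groups respectively. SOX11 was at 4.28 ± 0.84 TPM, SOX12 at 2.52 ± 0.48 TPM and SOX21 at 0.93 ± 0.43 TPM. SOX5 (0.45 ± 0.059 TPM) and SOX9 (0.18 ± 0.043 TPM) were lower. The order of these 8 genes was the same in all 6 libraries, and at each step down it the ranges over the 6 libraries did not overlap. SOX1 and SOX3 were not detectable at this depth, with 4 and 0 counts in all libraries together. For SOX3, the limit that a count of 0 allows (3 counts) is 0.041 to 0.063 CPM, which scale a library's counts to a common size, and neither gene was tested.

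SOX4 took most of the transcripts of the family, between 66.91% and 72.03% of the summed TPM of the 10 genes in a library. SOX21 took 0.43%, 0.48% and 0.47% in the DOX-negative libraries and 0.98%, 1.00% and 0.99% in the DOX-positive libraries. SOX21 thus stayed sixth in rank in both groups. Its TPM was 2.60%, 2.70% and 3.14% of that of SOX2 without DOX and 5.16%, 5.92% and 5.80% with DOX. The summed TPM of the family was 126.9 ± 17.0 without DOX and 129.4 ± 31.8 with DOX (SD, n = 3), so the sums overlapped. In such bulk samples, a change in all cells and a change in the share of cells with the transcript cannot be told apart.

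**Figure D1:**
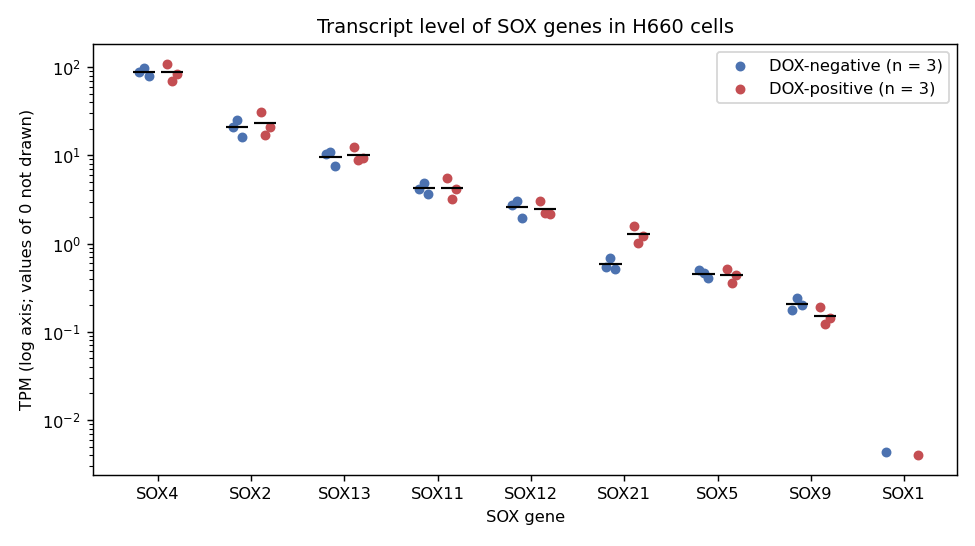
TPM of 9 SOX genes per library on a log axis, for 3 DOX-negative (blue) and 3 DOX-positive (red) libraries, with black lines at group means; SOX3 was at 0 and is not drawn. SOX4 is the highest gene, and SOX21, chosen for its rise, is the gene whose groups stand clear of each other in TPM, at 0.51 to 0.69 TPM against 1.02 to 1.60 TPM. The SOX9 groups overlap in TPM but not in normalized CPM.

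SOX21 was then compared between the groups. It had 175, 202 and 150 counts in DOX-negative replicates 1, 2 and 3 and 510, 356 and 465 counts in DOX-positive replicates 1, 2 and 3. Scaled by library size and composition (TMM), these were 2.74, 3.27 and 3.15 CPM without DOX and 6.75, 6.47 and 6.31 CPM with DOX. All DOX-positive libraries were above all DOX-negative libraries, and the libraries of a group lay close together. SOX21 thus averaged 3.05 ± 0.28 CPM in vehicle and 6.51 ± 0.22 CPM in DOX (SD, n = 3), a 2.14-fold difference and a log2 fold change of 1.09 (SE 0.12, 95% interval 0.84 to 1.35). This interval makes no allowance for the choice of SOX21 by its rise and is not a test. Of the 17026 genes tested, 98 had a larger log2 fold change (0.58%), and this rank restates why SOX21 was chosen. Over these 17026 genes, 4.87% were called at an adjusted p under 0.05, 2.91% higher and 1.96% lower with DOX. Without the DOX-negative replicate 3 library the log2 fold change was 1.11. In TPM the means were 0.58 ± 0.093 and 1.28 ± 0.30 (SD, n = 3). Over all 6 libraries SOX21 averaged 0.93 TPM, and 53.7% of the genes in the TPM table had a mean at or below its own.

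SOX21-AS1, the noncoding RNA on the other strand, was also higher with DOX. Without DOX it measured 1.86, 2.28 and 1.93 CPM, and with DOX 3.12, 2.86 and 3.21 CPM. These groups did not overlap either. SOX21-AS1 rose by a log2 fold change of 0.60 (SE 0.14, edgeR adjusted p = 0.033), which is 1.51-fold, from 2.02 ± 0.22 to 3.06 ± 0.19 CPM (SD, n = 3). It lost this call in 6 of 16 alternatives, 5 of which left out a single library (each of the 6 libraries except DOX-positive replicate 2), with log2 fold changes between 0.54 and 0.69 and adjusted p values of 0.059 to 0.14 in those 5. Over all alternatives the adjusted p ranged from 0.020 to 0.76. The TPM of SOX21 was 1.51, 1.47 and 1.67 times that of SOX21-AS1 without DOX and 2.21, 2.32 and 2.01 times with DOX. The strand setting and the gene models of the counting were not given in the sources used here. The RefSeq models of SOX21 and SOX21-AS1 do not overlap, but whether reads of one were counted for the other was not tested. RefSeq also places the lncRNA LOC112268114, not matched in the count table, over SOX21-AS1, and its reads were not separated here.

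**Figure D2:**
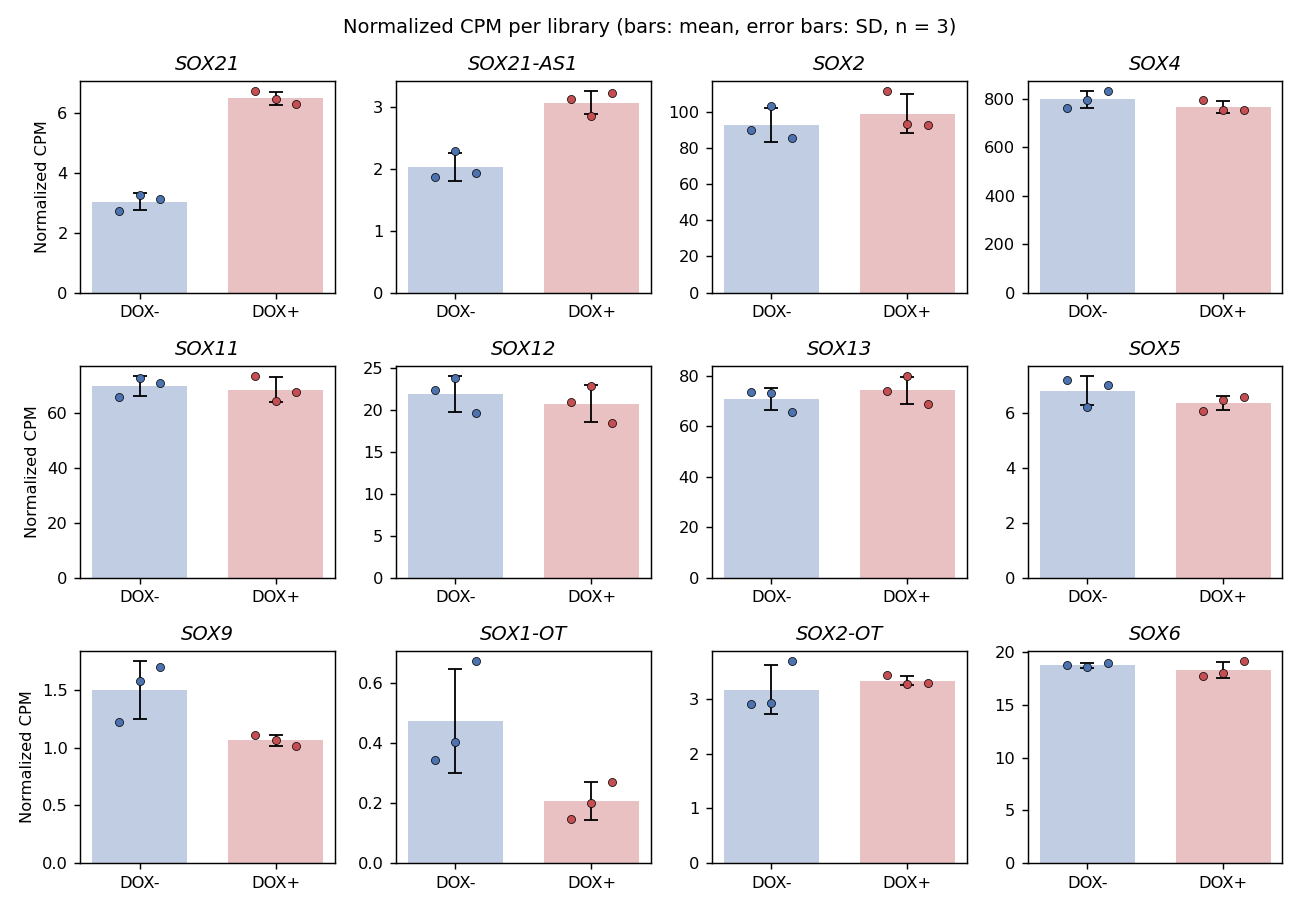
Normalized CPM of SOX21, 7 other members, SOX6 and 3 transcripts named for members, with 1 point per library, bars at the mean and error bars of 1 SD (n = 3), for DOX-negative (blue) and DOX-positive (red) cells; each panel has its own axis from 0. SOX21 (3.05 against 6.51 CPM) and SOX21-AS1 (2.02 against 3.06 CPM) are higher in every DOX-positive library, SOX9 and SOX1-OT are lower, and the groups of the remaining panels overlap.

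The neighbourhood of SOX21 on the chromosome was examined next. RefSeq places 19 other genes within 500 kb, of which 9 were in the count table and 6 were tested. Of these 6, 2 were called by edgeR, SOX21-AS1 and ABCC4, against 4.87% of all 17026 tested genes. The groups did not overlap for 28.1% of all tested genes. Whether the changes of these neighbours are linked to that of SOX21 was not tested. The nearest protein-coding genes on one side did not pass the threshold. GPR180, 75.0 kb away, changed by -0.085 (SE 0.11), TGDS, 113 kb away, by -0.030 (SE 0.099), DCT, 160 kb away, by 0.074 (SE 0.25) and GPC6, 302 kb away, by -0.20 (SE 0.094), with edgeR adjusted p values between 0.25 and 0.90. On the other side, past the start of SOX21-AS1, the nearest tested gene was ABCC4, which encodes a transporter of cyclic nucleotides and drugs and lies 307 kb away. ABCC4 rose with a log2 fold change of 0.72 (SE 0.13, edgeR adjusted p = 0.012), and its groups did not overlap. That call was lost in 3 of 16 alternatives, which included the fits without the DOX-negative replicate 2 library (0.66) and without the DOX-negative replicate 3 library (0.71).

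**Figure D3:**
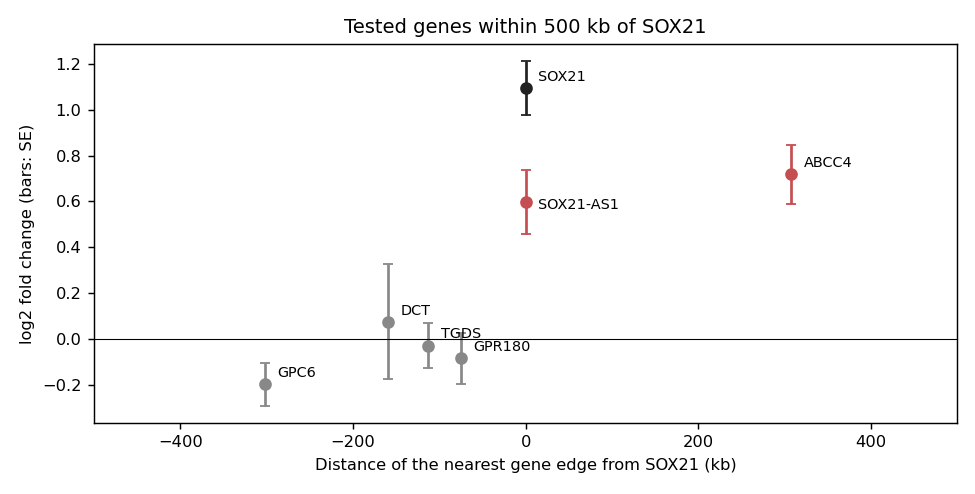
Log2 fold change (DOX-positive over DOX-negative, bars of 1 SE) of the tested genes within 500 kb of SOX21, against the distance of their nearest edge from SOX21 in kb. SOX21 (black), SOX21-AS1 and ABCC4 (red, adjusted p under 0.05) lie above 0.5, and GPC6, DCT, TGDS and GPR180 (grey, not called) lie between -0.20 and 0.074.

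Among the SOXB1 factors, SOX2 was the one detected, and it did not pass the threshold. It was at 89.7, 102.9 and 85.2 CPM without DOX and 111.3, 93.0 and 92.5 CPM with DOX. The groups overlapped, as the DOX-negative replicate 2 library exceeded a pair of DOX-positive libraries. The log2 fold change was 0.095 (SE 0.096, 95% interval -0.11 to 0.30, edgeR adjusted p = 0.62). SOX2-OT, a noncoding RNA whose gene contains SOX2 on the same strand, had 3.18 ± 0.45 and 3.34 ± 0.084 CPM (SD, n = 3) and differed by 0.080 on the log2 scale (SE 0.14, edgeR adjusted p = 0.79). The counting could divide reads of the shared stretch between these genes, so their counts are uncertain. SOX1-OT, a noncoding RNA whose RefSeq model contains the silent SOX1, was sparse, at 0.34, 0.40 and 0.67 CPM without DOX and 0.15, 0.20 and 0.27 CPM with DOX. Its groups did not overlap, yet the log2 fold change of -1.16 (SE 0.36) had an edgeR adjusted p of 0.084, on a mean of 20.2 counts. It was past the threshold in 1 of 15 alternatives, the replicate block, at an adjusted p of 0.047 in a range up to 0.39. SOX5-AS1 had 0 counts in every library. Of the 5 transcripts named for members, 4 were thus tested and SOX21-AS1 was called, against 4.87% of all tested genes.

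None of the 3 SOXC factors passed the threshold in the edgeR test, which 4.87% of all tested genes passed. SOX4, which promotes progenitor and invasive states in carcinoma, was at 763.6, 797.0 and 832.2 CPM without DOX and 795.0, 752.7 and 752.6 CPM with DOX. The groups overlapped, and the log2 fold change was -0.057 (SE 0.071, 95% interval -0.21 to 0.098, edgeR adjusted p = 0.70). With about 49120 counts per library, SOX4 had the narrowest interval of the family. SOX11, a factor of immature neurons, had a log2 fold change of -0.029 (SE 0.078, 95% interval -0.20 to 0.14), at 69.8 ± 3.53 and 68.4 ± 4.57 CPM (SD, n = 3). SOX12 had a log2 fold change of -0.079 (SE 0.10, 95% interval -0.31 to 0.15), at 21.9 ± 2.12 and 20.8 ± 2.17 CPM. Their adjusted p values were 0.88 and 0.72 by edgeR.

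The SOXD factors likewise did not pass the threshold. SOX13 was at 70.9 ± 4.37 CPM in vehicle and 74.2 ± 5.45 CPM in DOX (SD, n = 3), for a log2 fold change of 0.066 (SE 0.081, 95% interval -0.11 to 0.24). SOX5, which is spread over 1033147 bases of chromosome 12, was at 6.83 ± 0.52 and 6.39 ± 0.26 CPM, a log2 fold change of -0.096 (SE 0.11, 95% interval -0.33 to 0.14). The edgeR adjusted p values were 0.70 and 0.66, and both pairs of groups overlapped. SOX6, the third SOXD gene, had 18.7 ± 0.20 and 18.3 ± 0.73 CPM, and its log2 fold change was -0.034 (SE 0.081, adjusted p = 0.86 by edgeR).

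SOX9 had the largest difference among the members other than SOX21, but few counts. Its libraries had 78, 98 and 81 counts without DOX and 84, 59 and 75 counts with DOX, which scaled to 1.22, 1.58 and 1.70 CPM and to 1.11, 1.07 and 1.02 CPM. Every DOX-positive library was below every DOX-negative library, by a narrow margin for DOX-negative replicate 1. The log2 fold change of -0.49 (SE 0.18, 95% interval -0.88 to -0.087) did not pass the threshold (edgeR adjusted p = 0.15, and 0.11 to 0.87 over 16 alternatives). SOX9-AS1, a noncoding RNA read from the opposite strand beside SOX9, differed by -0.19 on the log2 scale (SE 0.21, edgeR adjusted p = 0.67), and its groups overlapped. The related SOXE gene SOX8 had 1.60 ± 0.084 and 1.29 ± 0.056 CPM (SD, n = 3), no overlap between the groups and a log2 difference of -0.31 (SE 0.16, edgeR adjusted p = 0.29).

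Of the 10 members, 8 passed the count filter and 1 was called, SOX21, which had been chosen for its rise. Of the other 7 tested members, 0 were called by edgeR, DESeq2 or limma-voom, and 1, SOX9, had an unadjusted p under 0.05 by edgeR, against 4.87% and 21.1% of all tested genes. The median log2 fold change of these 7 was -0.057, against 0.00034 over all tested genes, and SOX2 and SOX13 were above 0, against 50.1% of all tested genes. The groups did not overlap for 1 of these 7, SOX9, whereas they did not overlap for 28.1% of all tested genes. Among the 9 SOX genes outside the member list, 5 were tested, and 0 were called by edgeR or DESeq2, with 0 at an unadjusted p under 0.05. SOX7 (log2 fold change 0.13, SE 0.28), SOX15 (-0.0089, SE 0.37) and SOX18 (0.50, SE 0.44) had between 12.3 and 28.2 counts on average, while SOX10, SOX14, SOX17 and SOX30 had at most 2 counts in a library. SOX14, the other SOXB2 gene, was thus not detectable at this depth.

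**Figure D4:**
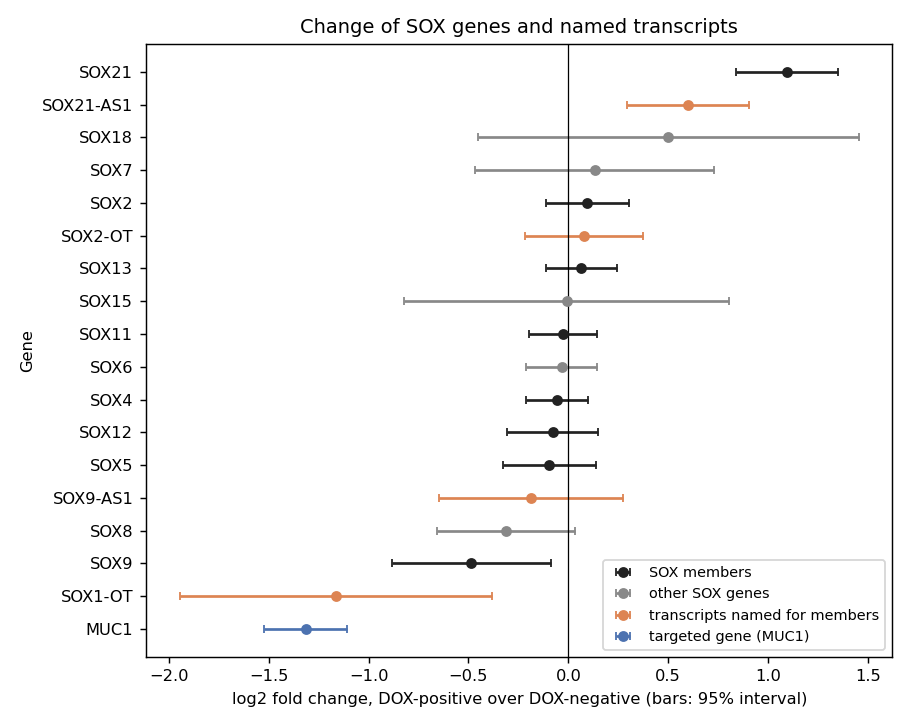
Log2 fold change (DOX-positive over DOX-negative) with 95% intervals of all tested SOX genes (members black, others grey), 4 transcripts named for members (orange) and MUC1 (blue). SOX21 (1.09) and SOX21-AS1 (0.60) lie to the right of 0, MUC1 (-1.32) lies farthest to the left, and SOX2, SOX4, SOX11, SOX12, SOX13, SOX5 and SOX6 lie within 0.1 of 0. The interval of SOX21 makes no allowance for its choice by its rise.

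**Figure D5:**
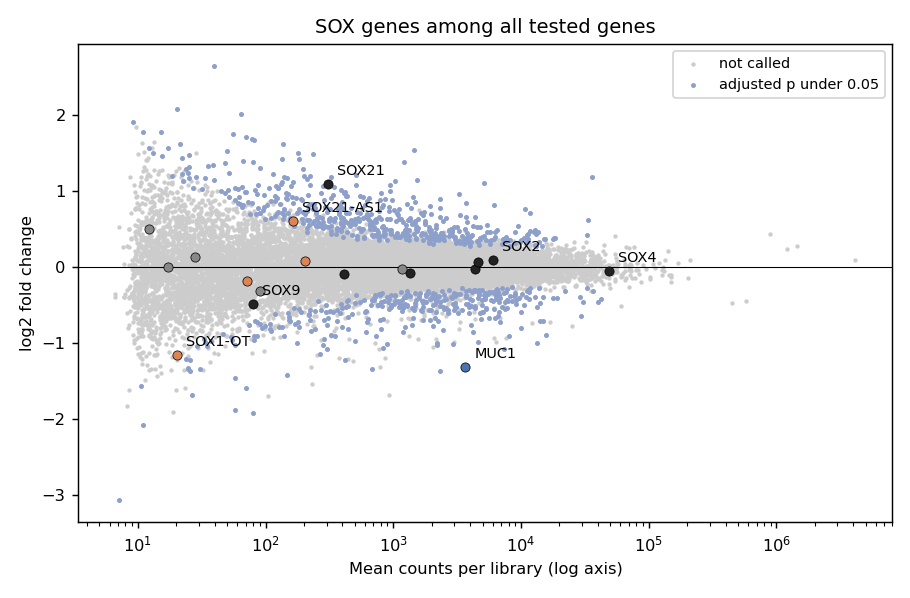
Log2 fold change against mean counts per library (log axis) for all 17026 tested genes, called genes in blue, with SOX genes, named transcripts and MUC1 as larger points coloured as in the plot of intervals. SOX21 sits at the upper edge of genes with a mean near 309.7 counts, and the abundant SOX4 and SOX2 sit on the zero line.

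Genes that act with SOX factors or respond to them were compared next. These lists were written by hand and chosen with earlier results of these data known. Over all 17026 tested genes, edgeR called 4.87%, and 21.1% had an unadjusted p under 0.05. The groups did not overlap for 28.1% of them. Among 11 partner factors, 6 were tested and 0 were called by edgeR or DESeq2, with a list median of -0.070, and the partner with an unadjusted p under 0.05 was POU3F2 (BRN2), which binds together with SOX2 in neural cells (log2 fold change -0.28, SE 0.11, adjusted p = 0.19). CHD7, a chromatin remodeler that binds SOX2, had a log2 fold change of -0.023 (SE 0.071). The pluripotency partners POU5F1, NANOG and SALL4 did not pass the count filter. Of the 4 TCF/LEF factors, which carry the same kind of HMG box and bind β-catenin, TCF7 rose by a log2 fold change of 0.70 (SE 0.12, edgeR adjusted p = 0.011). Its means were 7.37 ± 0.82 CPM in vehicle and 12.0 ± 1.52 CPM in DOX (SD, n = 3), and the groups did not overlap. LEF1 (0.14), TCF7L1 (0.17) and TCF7L2 (-0.085) did not pass the threshold. The TCF7 call was lost in 4 of 18 alternatives, among them the fit without the DOX-negative replicate 3 library, where the log2 fold change was 0.60 and the adjusted p 0.082, in a range of 3.0e-05 to 0.63.

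Of 10 genes known as SOXB1 targets or neural progenitor genes, 6 were tested and 1 was called, with a list median of 0.27. Over all tested genes, 4.87% were called and 21.1% had an unadjusted p under 0.05 by edgeR. The called gene of the list was CDKN1A, the cell cycle inhibitor p21, which is also a target of p53. CDKN1A rose by a log2 fold change of 0.62 (SE 0.11, edgeR adjusted p = 0.013), with means of 410.9 ± 38.2 and 632.2 ± 100.7 CPM (SD, n = 3), and this call was lost in 6 of 18 alternatives, including the fits without the DOX-negative replicate 2 (0.64), DOX-negative replicate 3 (0.55) or DOX-positive replicate 2 (0.59) library, in a range of adjusted p from 2.1e-05 to 0.85. NES, the progenitor filament nestin, was not called (0.18, SE 0.10), nor was LIN28B (-0.16, SE 0.11). FABP7, GLI3, DKK1 and HES5 did not pass the count filter. Among 7 SOXC targets, 5 were tested and 0 were called by edgeR, 1 had an unadjusted p under 0.05, 1 was called by DESeq2 and 0 by limma-voom. That gene was EZH2, the Polycomb methyltransferase, at 109.6 ± 1.04 and 130.4 ± 7.51 CPM (log2 fold change 0.25, SE 0.071, edgeR adjusted p = 0.066), and it also passed without the DOX-positive replicate 2 library (0.30, adjusted p = 0.020). TUBB3, a neuronal tubulin, had a log2 fold change of -0.087 (SE 0.092), and the list median was -0.087.

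Of 8 cartilage genes that SOX9, SOX5 and SOX6 activate together in chondrocytes, 5 were tested and 0 were called by edgeR. An unadjusted p under 0.05 was found for 2, and 1 was called by both DESeq2 and limma-voom. Over all tested genes, 4.87% were called and 21.1% had an unadjusted p under 0.05 by edgeR. The gene called by both DESeq2 and limma-voom was HAPLN1, which links hyaluronan to proteoglycan. It was at 110.6, 142.0 and 143.4 CPM without DOX and 87.3, 71.6 and 47.8 CPM with DOX. The groups did not overlap, but the DOX-positive libraries spread widely, and the log2 fold change of -0.94 (SE 0.22) had an edgeR adjusted p of 0.064. HAPLN1 passed the threshold in 5 of 18 alternatives, which were DESeq2 (adjusted p = 0.0089), limma-voom (-0.97, adjusted p = 0.020), edgeR without robust estimation (adjusted p = 0.0185) and edgeR without DOX-positive replicate 1 (-1.15, adjusted p = 0.0052) or DOX-positive replicate 3 (-0.73, adjusted p = 0.0095), and its adjusted p reached 0.63 in the others. COL2A1, the cartilage collagen, had a log2 fold change of 0.029 (SE 0.18), the list median was 0.029, and ACAN was at 0 in every library.

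The genes whose pattern was most like that of SOX21 were sought among 14586 genes that averaged 50 counts or more. Across the 6 libraries, Pearson's r of log2 CPM with SOX21 was highest for LOC101927420 (0.994), CD68 (0.989), LINC02341 (0.989), VIM (0.988) and NRP1 (0.987). CD68 is a lysosomal glycoprotein, VIM a mesenchymal intermediate filament and NRP1 a semaphorin and VEGF receptor. These correlations largely restate the difference between the groups and come without a test. By edgeR, LOC101927420 (log2 fold change 0.30, adjusted p = 0.27) and LINC02341 (0.45, adjusted p = 0.10) were not called. CD68 (0.78, adjusted p = 0.019), VIM (0.35, adjusted p = 0.026) and NRP1 (0.32, adjusted p = 0.022) were called. Those calls were lost in 4 of 16, 7 of 18 and 6 of 18 alternatives respectively. For comparison, r with SOX21 was 0.96 for SOX21-AS1, 0.44 for SOX2 and -0.97 for MUC1. Taken as deviations from the group means, where the shared difference is removed, SOX21 was most like LOC285626 (0.99), ELOVL2-AS1 (0.98), LOC101928307 (0.98), YTHDF2 (0.98) and LOC100505549 (0.97). On that measure r was 0.61 for SOX21-AS1 and 0.16 for MUC1. Among the tested members it was 0.92 for SOX9, 0.77 for SOX11, 0.76 for SOX4 and 0.52 for SOX2. It was 0.11 for SOX12, -0.14 for SOX13 and -0.81 for SOX5. With 6 libraries such values are descriptions only.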

How the data were processed

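RNA-seq of 6 NCI-H660 libraries was analysed from the deposited tables, in which the authors gave raw counts and TPM for each gene symbol. The submitters' processing notes name STAR, DESeq2 and GRCh38 (hg38), and the versions, annotation, gene lengths and strand setting are not given in the sources used here. The labels describe stranded mRNA libraries, yet RN7SK, which lacks a poly(A) tail, was abundant. Groups and replicate numbers came from the sample titles.

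Groups were compared in edgeR 4.0.16 under R 4.3.3, using filterByExpr, TMM factors (0.967 to 1.03), glmQLFit with robust estimation and glmQLFTest without covariates, Benjamini-Hochberg adjustment over 17026 genes and a threshold of 0.05. The F statistic gave each SE, and its degrees of freedom the 95% interval. Floors cover counting error only. Same-group libraries were distinct (chi-square per degree of freedom 16.3 to 99.2). Alternatives were other scalings, filters, DESeq2 1.42.0, limma 3.58.1 (voom, and trend on log2 TPM), a replicate block and leaving out each library. The tests were tried on simulated counts. Positions and promoters came from RefSeq (GRCh38.p14), which matched 91.6% of symbols, and strand and exons from GENCODE. No protein sequences were used here. Members and lists were chosen with earlier results of these data known. Named genes were all SOX genes and transcripts named for members, called genes of each list (up to 4), the 5 most like SOX21 on each measure, tested genes within 500 kb of SOX21, and a few named after their values were seen.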

Additional observations from a re-analysis of the deposited data

How the results depend on the processing

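Depth limits the sparse genes most: SOX9, SOX8, SOX1-OT, SOX7, SOX15 and SOX18 averaged at most 90 counts. The number of called genes, 829, became 1355 with DESeq2, 30 or 35 where the fit used log2 TPM with a pseudocount of 1 or 0.1 and a minimum mean TPM of 1, and 0 by limma on unfiltered log2(TPM + 1), where 1248 genes had an unadjusted p under 0.05. Leaving out 1 library gave 58 (without DOX-negative replicate 3) to 1035 (without DOX-positive replicate 1), while dropping DOX-negative replicate 2 gave 127 and dropping DOX-positive replicate 3 gave 375. Of the members other than SOX21, 0 were called in any of the 18 alternatives. SOX21, whose rise chose the family, made the count of called members 1 in 15 of them and 0 in the 3 TPM fits, which is a description and no test (the filtered 2 exclude SOX21 by its mean TPM). The log2 fold change of SOX21 ranged from 1.02 to 1.15 in fits of counts and was 0.52 on unfiltered log2(TPM + 1), where the pseudocount is near its level. The number of steps in the order of levels without overlap stayed at 8 when a library was left out.

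Libraries with equal replicate numbers were not treated as pairs: over 14587 genes, their deviations correlated at -0.54, 0.019 and -0.10. A replicate block gave 998 calls, of which 750 were shared with the 829, SOX21 was at 1.10, SOX21-AS1 kept its call (adjusted p = 0.041) and SOX1-OT gained one (-1.19). SOX15 reversed to 0.0026 without a count filter, 0.0021 on unfiltered log2(TPM + 1) and 0.012 with the block. Leaving out 1 library moved SOX15 from -0.36 to 0.32, SOX11 from -0.081 to 0.016 and SOX7 from -0.053 to 0.28. Without a change of sign, SOX18 moved from 0.22 to 1.04 and SOX1-OT from -1.44 to -0.86. Among neighbours, DCT moved from -0.088 to 0.25, TGDS from -0.072 to 0.043 and GPR180 from -0.16 to 0.034. What caused these shifts was not tested. For genes other than SOX21, 404 values from fits of all libraries stayed on their side of the threshold with their sign, 26 calls were lost, 5 were gained and 3 signs reversed. Without 1 library the same tallies were 195, 32, 3 and 10.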
